A study of Mus musculus with 2 samples.

Results

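Megakaryocyte and platelet genes were examined in mouse embryonic endothelial cells (EC), sorted from the region of aorta, gonads and mesonephros (AGM). The 33 genes were chosen with earlier results of these data known, so the list is not independent of the data. They were taken by symbol from knowledge of the platelet proteome and of the megakaryocyte program. They comprised granule cargo, the surface receptors of platelets, their signaling proteins and the platelet-specific tubulin, and a set that endothelium also makes. Of the 33 genes, 30 had a row among the 12684 genes of the table, and Gp1bb, Gp5 and Selp, which encode platelet glycoproteins and P-selectin, had none. The 30 genes lie on 12 chromosomes.

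The study compared GFP-depleted EC with bulk EC, both at E10.5, with 1 library per group. The methods of the study give the gate CD31+, CD117- and CD45- for GFP-depleted EC and do not state it for bulk EC. GFP-depleted EC were the Runx1+23GFP- cells of transgenic embryos in which the +23 enhancer of Runx1 drives GFP, an enhancer active in hemogenic endothelium. Bulk EC came from wild type littermates, and no gate on GFP is stated for them. The labels give the strain Runx1+23GFP for both samples. In the study, the results section describes GFP+ cells and the methods GFP- EC, and the labels, which give GFP- EC, are followed. The number of embryos pooled is not given in the sources used here. CD41, the protein of the member Itga2b, was not part of the gate given for GFP-depleted EC.

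Megakaryocytes are large hematopoietic cells that fill their cytoplasm with granules and shed platelets through long microtubule-driven extensions. Platelets adhere to exposed collagen and to von Willebrand factor, amplify the signal through adaptor complexes and G proteins, and then aggregate by binding fibrinogen with the integrin αIIbβ3. In the embryo, megakaryocyte progenitors first arise in the yolk sac, and several platelet proteins, von Willebrand factor among them, are also made by EC.

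Values are RPKM (read density, scaled by gene model length and by library size) as deposited, so levels of different genes are per unit of length. A gene was called lower or higher in GFP-depleted EC where the higher value reached 0.3 RPKM and exceeded the other by more than 1.5-fold, the rule of the study. Log2 ratios put GFP-depleted EC over bulk EC, with 0.3 RPKM added to both values, which understates the difference for low genes. With 1 library per group there was no spread between replicates and no test, so every difference is between 2 libraries. The depth recovered from the values was about 14600000 reads for the GFP-depleted EC library, against 110000000 reads for bulk EC. Ranges given with a fold are exact 95% intervals from the approximate read numbers and cover counting error only.

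Of the 30 genes, 24 were lower in GFP-depleted EC, against 23.6% of all genes, and 1, Mmrn1, was higher, against 15.3% of all genes (6.61% by a 2-fold rule, which Mmrn1 did not pass). The other 5 genes, Clec1b, Gng11, Cd9, Serpine2 and Trpc6, lay within 1.5-fold. The median log2 ratio was −2.33 over the 30 genes and −0.02 over all genes. The difference was at least 4-fold for 17 of the 30 genes (3.94% of all genes) and at least 10-fold for 8 of them (1.21% of all genes). Of the 50 genes with the lowest log2 ratio among all 12684, 10 were members, a ranking that depends on the 0.3 RPKM added. They include Bin2 (listed as AC123724.9), Treml1, Gp6 and Rab27b, all under 0.5 RPKM in GFP-depleted EC. The lowest mean of the 2 values of any gene in the table was 0.50 RPKM. For 6 of the 30 genes the level in GFP-depleted EC was under 0.5 RPKM, so that these were listed through their level in bulk EC, and the counts describe listed genes, not the whole set of 33.

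By role, all 3 granule genes and all 10 genes for signaling proteins, enzymes and tubulin were lower in GFP-depleted EC, with median log2 ratios of −3.12 and −2.39. Of the 10 listed receptor genes, 9 were lower, with a median of −3.07, and Clec1b was the exception. Among the 7 listed genes that endothelium also makes, 2 were lower and 1 was higher, close to the 23.6% and 15.3% of all genes, with a median of −0.39. Without those 7, 22 of 23 genes were lower, and the folds of the 21 lower genes with a value above 0 in both libraries were between 1.82 and 70.0.

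**Figure D1:**
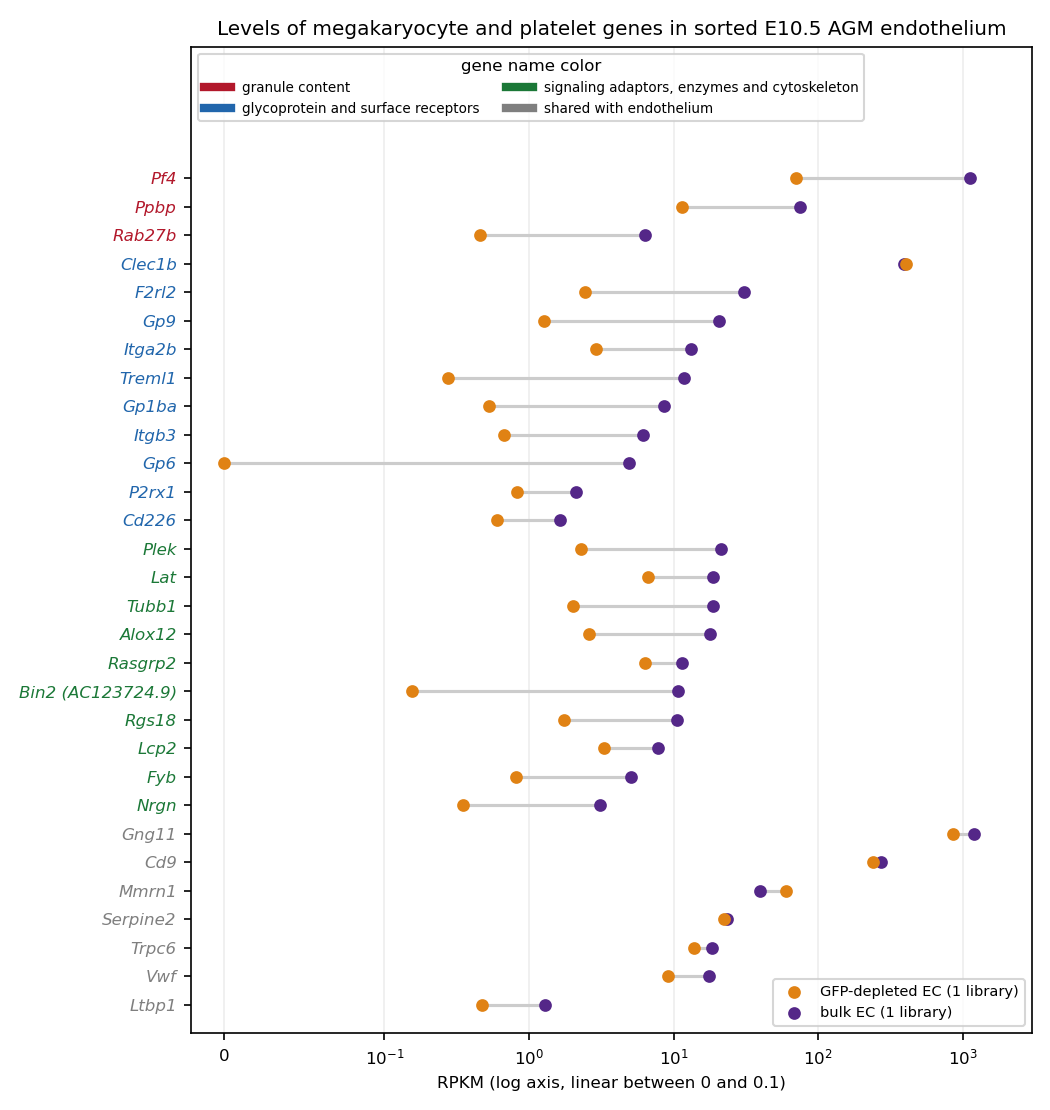
Level of each of the 30 genes in GFP-depleted EC (orange) and bulk EC (purple), in RPKM on a log axis that is linear between 0 and 0.1, 1 library per point, with gene names colored by group. Orange points lie left of purple ones in the first 3 groups except for Clec1b, at 404.0 RPKM in GFP-depleted EC and 393.6 RPKM in bulk EC, while most of the genes shared with endothelium have both points close together.

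The cargo of α-granules held the member of highest level in bulk EC outside the endothelial set. Pf4, the chemokine platelet factor 4, had 70.3 RPKM in GFP-depleted EC and 1112 RPKM in bulk EC. It was 15.8-fold lower in GFP-depleted EC (14.6 to 17.2), on about 603 reads there, and its log2 ratio was −3.98. By level, Pf4 ranked 1617 in GFP-depleted EC, against 71 in bulk EC, among the 12684 genes, so it was among the most abundant transcripts of bulk EC only. Ppbp, the precursor of the platelet chemokine CXCL7, had 11.5 RPKM in GFP-depleted EC and 75.1 RPKM in bulk EC, 6.53-fold lower in GFP-depleted EC (5.63 to 7.59). Both genes lie on chromosome 5 of the mm9 assembly, Ppbp at 91197544 to 91199086 and Pf4 at 91201461 to 91202407, with 2375 bases between them on the same strand. The transcripts of the pair did not keep 1 proportion, since Pf4 was 6.11 times the level of Ppbp in GFP-depleted EC and 14.8 times in bulk EC. Rab27b, a small GTPase of granule secretion, had 0.460 RPKM in GFP-depleted EC and 6.32 RPKM in bulk EC, 13.7-fold lower in GFP-depleted EC (10.9 to 17.5).

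Promoter sequences are shown for Pf4, for Gp1ba and Gp9, which encode subunits of the same receptor, and for Clec1b, the receptor gene that did not differ, so that genes moving together and apart can be read side by side. GATA1 and ETS family factors are known activators of megakaryocyte promoters. The sequences are RefSeq promoters on GRCm38.p6, not the mm9 assembly of the table, and run from 250 bases before to 50 bases after the annotated start, all on the plus strand. Capitals mark the GATA motif, AGATAA or its variant AGATAG, and TGATAA or its variant TGATAG, searched on both strands.
Pf4 (chr5:90772185-90772484): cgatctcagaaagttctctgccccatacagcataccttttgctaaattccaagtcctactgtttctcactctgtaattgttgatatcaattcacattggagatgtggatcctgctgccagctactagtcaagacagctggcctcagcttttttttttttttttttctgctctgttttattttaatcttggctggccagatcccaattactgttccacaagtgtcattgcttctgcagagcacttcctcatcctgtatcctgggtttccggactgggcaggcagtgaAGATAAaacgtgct
Gp1ba (chr11:70638872-70639171): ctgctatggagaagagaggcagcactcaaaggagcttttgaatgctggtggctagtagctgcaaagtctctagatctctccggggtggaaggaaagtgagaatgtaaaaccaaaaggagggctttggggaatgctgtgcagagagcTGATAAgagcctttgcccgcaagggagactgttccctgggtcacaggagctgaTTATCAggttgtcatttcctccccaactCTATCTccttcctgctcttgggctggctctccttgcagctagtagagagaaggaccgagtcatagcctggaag
Gp9 (chr6:87777820-87778119): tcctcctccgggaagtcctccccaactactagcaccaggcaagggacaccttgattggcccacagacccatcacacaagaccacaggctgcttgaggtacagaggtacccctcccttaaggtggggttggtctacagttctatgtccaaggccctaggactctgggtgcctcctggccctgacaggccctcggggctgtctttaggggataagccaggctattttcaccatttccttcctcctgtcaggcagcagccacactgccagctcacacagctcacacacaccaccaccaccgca
Clec1b (chr6:129397047-129397346): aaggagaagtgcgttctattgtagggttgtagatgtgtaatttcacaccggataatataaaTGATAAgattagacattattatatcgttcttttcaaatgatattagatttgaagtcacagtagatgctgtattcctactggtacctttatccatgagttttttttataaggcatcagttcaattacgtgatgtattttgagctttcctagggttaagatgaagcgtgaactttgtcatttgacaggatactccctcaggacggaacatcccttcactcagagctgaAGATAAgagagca

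In these windows the motif began at +37 in Pf4, at −104, −51 and −23 in Gp1ba and at −189 and +38 in Clec1b, counted from the start, and no match was found in Gp9. Promoters were found for 26 of the 33 symbols, with 28 windows in all. A GATA motif was in 11 of the 28 windows (39.3%), against 29.8% of all 32851 promoters, and an ETS motif (AGGAAG or CGGAAG, both strands) was in 15 (53.6%), against 46.5%. Both motifs were in 6 windows (21.4%), against 12.6%, and a GATA match and an ETS match may share an end base, each being counted on its own. Among genes lower in GFP-depleted EC, 7 of 20 windows held a GATA motif, as did 2 of the 5 windows of listed genes that were not lower. The match was therefore present in windows of both kinds, and Clec1b, with 2 matches, and Gp1ba, with 3, differed in their ratio. A match describes the letters of the window and is not evidence of a bound site.

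The receptor for von Willebrand factor is built from GPIbα, GPIbβ, GPIX and GPV, and only Gp1ba and Gp9 were listed. Gp9 (chromosome 6, 87728130 to 87729756) had 1.26 RPKM in GFP-depleted EC and 20.7 RPKM in bulk EC. Gp1ba (chromosome 11, 70452624 to 70456328) had 0.526 RPKM in GFP-depleted EC and 8.52 RPKM in bulk EC. The differences were of like size, 16.4-fold (9.92 to 29.4) for Gp9 and 16.2-fold (11.1 to 24.6) for Gp1ba, both lower in GFP-depleted EC. The ratio of Gp9 to Gp1ba was accordingly 2.40 in GFP-depleted EC, against 2.43 in bulk EC. These values rest on about 15 reads for Gp9 and 27 reads for Gp1ba in GFP-depleted EC. None of the 6 listed genes within 50000 bases of Gp1ba was called in either direction. Slc25a11, a mitochondrial carrier 1374 bases away, had 77.3 RPKM in GFP-depleted EC and 68.5 RPKM in bulk EC, and Pfn1, which encodes profilin, had 1906 RPKM in GFP-depleted EC and 2471 RPKM in bulk EC.

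Collagen and podoplanin receptors went different ways. Gp6, the collagen receptor, was listed at 0 in GFP-depleted EC and had 4.91 RPKM in bulk EC. With a floor of 3 reads in place of 0, 0.178 RPKM for this gene, Gp6 was 27.6-fold lower in GFP-depleted EC. The lower limit of the counting interval of Gp6, at 0 reads, was 22.4-fold. The medians above were the same with Gp6 set at that floor. Treml1, which encodes the α-granule membrane receptor TLT-1, had 0.274 RPKM in GFP-depleted EC and 11.8 RPKM in bulk EC, 43.0-fold lower in GFP-depleted EC, with a wide interval (18.4 to 132.6) because about 5 reads were counted there. Clec1b, which encodes CLEC-2, the receptor for podoplanin, was by contrast at 404.0 RPKM in GFP-depleted EC and 393.6 RPKM in bulk EC. Its ratio was 1.03 (1.01 to 1.04), with rank 293 in GFP-depleted EC against rank 284 in bulk EC. The log2 ratio of Clec1b was 0.04 as deposited and −0.21 after correction for GC content, so its direction was not stable. Clec1b was thus 5.75 times the level of Pf4 in GFP-depleted EC, whereas Pf4 was 2.83 times the level of Clec1b in bulk EC. The exons of Clec1b share 184 bases with those of Clec9a on the same strand, and Clec9a itself was at 4.32 RPKM in GFP-depleted EC and 3.32 RPKM in bulk EC.

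The integrin αIIbβ3 binds fibrinogen and is the most abundant platelet integrin. Itga2b (CD41, chromosome 11, 102314623 to 102331197), which early hematopoietic progenitors also make, had 2.90 RPKM in GFP-depleted EC and 13.3 RPKM in bulk EC. It was 4.59-fold lower in GFP-depleted EC (4.03 to 5.25). Itgb3, whose product also pairs with αv in endothelium, had 0.675 RPKM in GFP-depleted EC and 6.11 RPKM in bulk EC, 9.05-fold lower in GFP-depleted EC (6.96 to 11.9). Since the β subunit differed more than the α subunit, Itga2b was 4.29 times Itgb3 in GFP-depleted EC and 2.17 times in bulk EC. F2rl2, which encodes PAR3, the cofactor for thrombin signaling in mouse platelets, had 2.45 RPKM in GFP-depleted EC and 30.7 RPKM in bulk EC, 12.5-fold lower in GFP-depleted EC (10.1 to 15.5). The last receptors were low in both libraries and differed less. P2rx1, an ATP-gated channel, had 0.827 RPKM in GFP-depleted EC and 2.11 RPKM in bulk EC, 2.55-fold lower in GFP-depleted EC (1.77 to 3.73). Cd226, an adhesion receptor also of lymphocytes, had 0.601 RPKM in GFP-depleted EC and 1.63 RPKM in bulk EC, 2.71-fold lower in GFP-depleted EC (1.73 to 4.36).

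**Figure D2:**
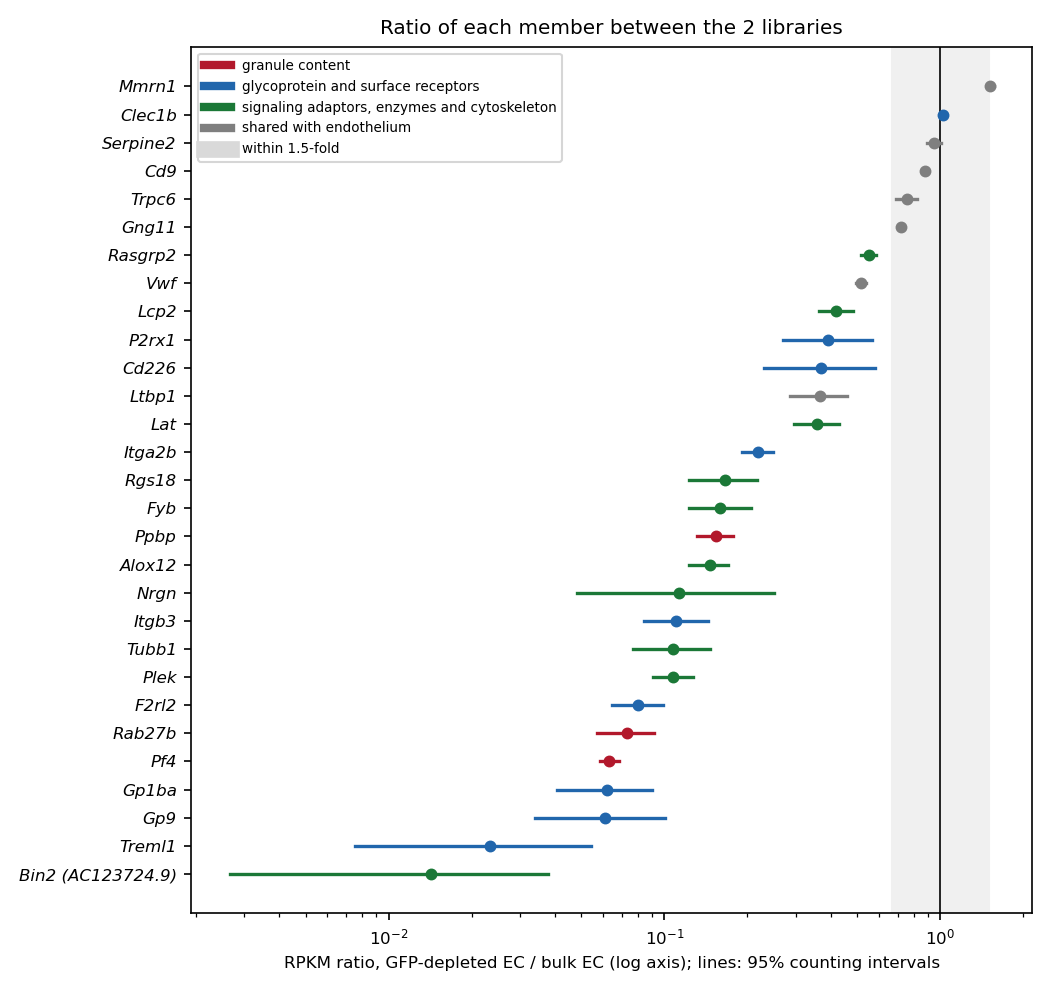
Ratio of RPKM in GFP-depleted EC over bulk EC on a log axis for the 29 genes with a value above 0 in both libraries, with horizontal lines for 95% counting intervals and gray shading for ratios within 1.5-fold. Mmrn1 is at 1.52 and Clec1b at 1.03, and genes with few reads in GFP-depleted EC, Bin2 and Treml1 among them, have the widest intervals.

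Below the receptors, adaptors and exchange factors relay the signal to calcium and to integrin activation. Lat, Lcp2 and Fyb encode the adaptors LAT, SLP-76 and ADAP. Lat had 6.69 RPKM in GFP-depleted EC and 18.7 RPKM in bulk EC, 2.80-fold lower in GFP-depleted EC (2.34 to 3.39). Lcp2 had 3.30 RPKM in GFP-depleted EC and 7.85 RPKM in bulk EC, 2.38-fold lower in GFP-depleted EC (2.08 to 2.75). Fyb had 0.811 RPKM in GFP-depleted EC and 5.08 RPKM in bulk EC, 6.27-fold lower in GFP-depleted EC (4.84 to 8.15), although 11.5% of its exon bases overlap other gene models. All 3 adaptors are also used in T cells, and all 3 were lower in GFP-depleted EC. Rasgrp2, which encodes the activator CalDAG-GEFI of the GTPase Rap1, differed least in this group, at 6.30 RPKM in GFP-depleted EC and 11.5 RPKM in bulk EC, 1.82-fold lower in GFP-depleted EC (1.71 to 1.93). Rgs18, a brake on G protein signaling, had 1.75 RPKM in GFP-depleted EC and 10.6 RPKM in bulk EC, 6.04-fold lower in GFP-depleted EC (4.60 to 8.13).

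Plek encodes pleckstrin, a main substrate of protein kinase C in platelets. It had 2.28 RPKM in GFP-depleted EC and 21.2 RPKM in bulk EC, 9.30-fold lower in GFP-depleted EC (7.89 to 11). Bin2, a BAR domain gene that the table lists as AC123724.9, had 0.154 RPKM in GFP-depleted EC and 10.8 RPKM in bulk EC. With 0.3 RPKM added, its log2 ratio, −4.61, was the lowest of the 12684 genes. With a pseudocount of 1 RPKM it was −3.35, against −3.96 for Pf4, so the rank depended on the pseudocount. The 70.0-fold difference of Bin2 had an interval of 26.5 to 376.9, on about 3.33 reads in GFP-depleted EC. Nrgn, which encodes the calmodulin-binding protein neurogranin, had 0.348 RPKM in GFP-depleted EC and 3.08 RPKM in bulk EC, 8.85-fold lower in GFP-depleted EC (4.0 to 20.8). Esam, an endothelial and platelet adhesion gene 6659 bases from Nrgn, was at 404.2 RPKM in GFP-depleted EC and 351.8 RPKM in bulk EC, so the neighbors differed in their ratio. Alox12, the platelet 12-lipoxygenase, had 2.61 RPKM in GFP-depleted EC and 17.9 RPKM in bulk EC, 6.87-fold lower in GFP-depleted EC (5.86 to 8.13). Tubb1, the β1-tubulin of the platelet marginal band, had 2.0 RPKM in GFP-depleted EC and 18.6 RPKM in bulk EC, 9.28-fold lower in GFP-depleted EC (6.85 to 13). A short gene model on the other strand within the span of Tubb1, AL844534.4, picked after its values were seen, had 1.02 RPKM in GFP-depleted EC and 16.9 RPKM in bulk EC. Whether strand was used in counting is not given in the sources used here, so reads of the 2 models cannot be told apart.

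The genes that endothelium also makes ranged widely in level, and 4 of the 7 listed lay within 1.5-fold. Gng11, a G protein γ subunit, had 852.9 RPKM in GFP-depleted EC and 1188 RPKM in bulk EC, a difference of 1.39-fold (1.37 to 1.42) that stayed under the 1.5-fold rule. It was 12.1 times the level of Pf4 in GFP-depleted EC and 1.07 times in bulk EC. Cd9, a tetraspanin, had 240.2 RPKM in GFP-depleted EC and 272.2 RPKM in bulk EC, within 1.5-fold. Serpine2, which encodes the thrombin inhibitor protease nexin-1, had 22.3 RPKM in GFP-depleted EC and 23.5 RPKM in bulk EC, and the interval of its 1.05-fold difference included equality (0.994 to 1.12). Trpc6, a cation channel, had 13.9 RPKM in GFP-depleted EC and 18.3 RPKM in bulk EC, a 1.32-fold difference (1.21 to 1.44) below the rule.

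Vwf, von Willebrand factor itself, passed the 1.5-fold rule. It had 9.10 RPKM in GFP-depleted EC and 17.7 RPKM in bulk EC, 1.94-fold lower in GFP-depleted EC (1.86 to 2.03). Ltbp1, which binds latent TGF-β, was the lowest of this group, with 0.475 RPKM in GFP-depleted EC and 1.30 RPKM in bulk EC, 2.74-fold lower in GFP-depleted EC (2.17 to 3.51). Mmrn1, which encodes the factor V carrier multimerin 1, had 60.1 RPKM in GFP-depleted EC and 39.6 RPKM in bulk EC. Its ratio of 1.52 (1.47 to 1.56) lay just past the rule, and after correction for GC content its log2 ratio was 0.39 in place of 0.60 and it was no longer called. A second model of the same symbol, whose span overlaps the first, had 21.8 RPKM in GFP-depleted EC and 11.2 RPKM in bulk EC, a ratio of 1.95. Mmrn1 was thus higher in GFP-depleted EC by both models, at the edge of the rule in the first and past it in the second. Whether the overlapping models share reads was not tested.

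**Figure D3:**
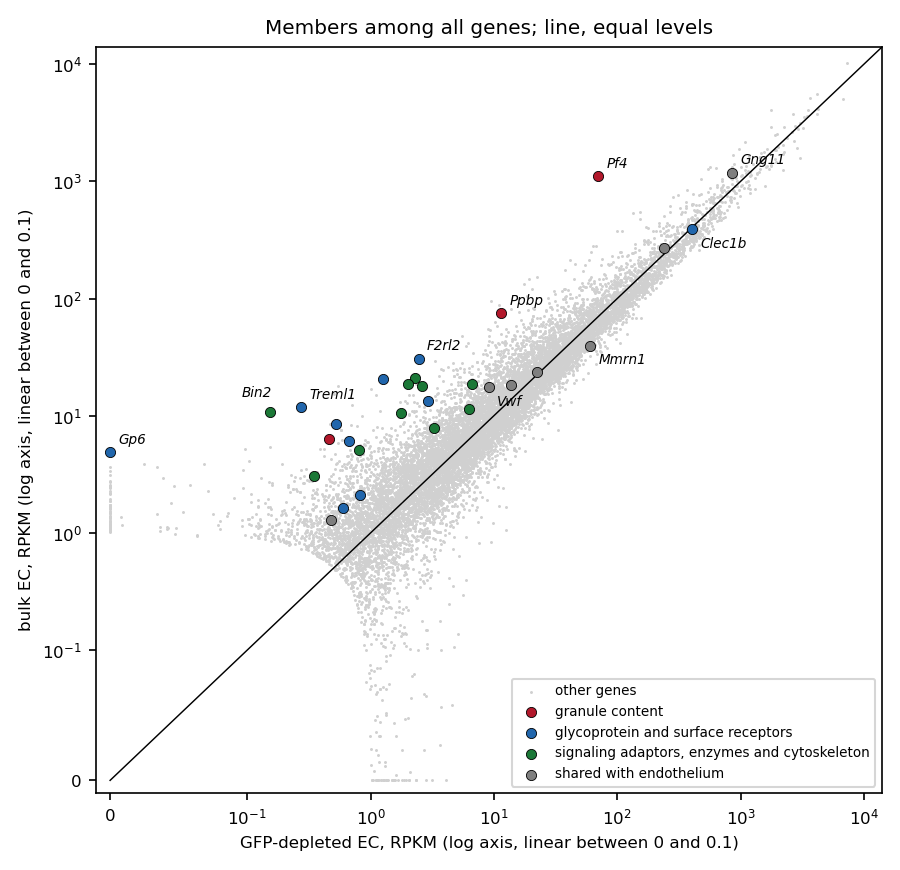
Level of each gene in GFP-depleted EC (horizontal) against bulk EC (vertical), in RPKM on log axes that are linear between 0 and 0.1, with members colored by group over all 12684 genes in gray and a line at equal levels. Pf4 stands at 70.3 RPKM in GFP-depleted EC and 1112 RPKM in bulk EC, far above the line, and Clec1b and Gng11 lie near it.

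Summed levels show how much of the total rested on a few genes. The 30 genes added up to 1721 RPKM in GFP-depleted EC and 3373 RPKM in bulk EC, a share of all RPKM of 0.276% in GFP-depleted EC against 0.526% in bulk EC. Without the endothelial set the sum was 522.0 RPKM in GFP-depleted EC and 1812 RPKM in bulk EC. Without Clec1b as well it was 118.0 RPKM in GFP-depleted EC and 1419 RPKM in bulk EC. Leaving out Pf4 as well, 47.7 RPKM remained in GFP-depleted EC and 306.4 RPKM in bulk EC. The genes left without the endothelial set and Clec1b were all called lower, so the last 2 sums could only be lower in GFP-depleted EC. In bulk RNA, fewer cells of a type and less RNA per cell cannot be told apart.

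Depth differed between the libraries by 7.50-fold, and its part in the ratios was not tested. In GFP-depleted EC, 4 members had under 10 reads (Gp6, Treml1, Bin2 and Nrgn) and 9 had under 50, whereas in bulk EC no member had fewer than 421 reads. The counting interval lay wholly past 1.5-fold lower for 24 of the 30 members, against 16.5% of all genes with an interval. These were the 24 members called lower. It lay wholly past 1.5-fold higher for no member, against 8.68% of all genes with an interval. GC content of the exons was similar, with a median of 50.1% over the 30 genes and 49.6% over all genes. After correction for it the same 24 genes were lower, against 18.6% of all genes, with a median log2 ratio of −2.09.

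Other genes of platelet biology, 97 in 5 lists, were less uniform. Of the 85 with a row, 38 (44.7%) were lower in GFP-depleted EC and 6 were higher, against 23.6% and 15.3% of all genes, with a median log2 ratio of −0.39. Of 15 receptors, 5 were lower and 3 higher. Of 27 signaling genes, 15 were lower and 1 was higher. Of 26 genes of granule biogenesis and secretion, 12 were lower and none was higher. The 5 eicosanoid enzymes split into 3 lower and 2 higher, and of 12 cytoskeletal genes 3 (25%) were lower, near the share of all genes, and none was higher. Many of these genes are used by every cell or by endothelium.

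Among these receptors, the thrombin receptor F2r, also endothelial, had 53.0 RPKM in GFP-depleted EC and 81.5 RPKM in bulk EC, 1.54-fold lower in GFP-depleted EC. Tbxa2r, the thromboxane receptor, had 6.85 RPKM in GFP-depleted EC and 15.3 RPKM in bulk EC, but it was not called after correction for GC content. Receptors that were higher in GFP-depleted EC included the collagen-binding integrin Itga2, at 6.42 RPKM in GFP-depleted EC and 3.07 RPKM in bulk EC, and the junction protein Jam3, at 15.6 RPKM in GFP-depleted EC and 9.12 RPKM in bulk EC.

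Of the signaling genes, Gnai2, the inhibitory G protein subunit, had 284.8 RPKM in GFP-depleted EC and 729.8 RPKM in bulk EC, 2.56-fold lower in GFP-depleted EC. Rap1b, the GTPase that turns on platelet integrins, had 50.2 RPKM in GFP-depleted EC and 81.2 RPKM in bulk EC, 1.62-fold lower in GFP-depleted EC. The adaptor Skap2 was the 1 gene higher in GFP-depleted EC, at 71.7 RPKM there and 47.4 RPKM in bulk EC, and its call was lost after correction for GC content. In the granule list, Clu had 16.4 RPKM in GFP-depleted EC and 36.1 RPKM in bulk EC, 2.20-fold lower in GFP-depleted EC. Stxbp2 had 9.65 RPKM in GFP-depleted EC and 17.5 RPKM in bulk EC, 1.81-fold lower in GFP-depleted EC. Thbs1 encodes the α-granule protein thrombospondin 1, which other cells also secrete. It had 1.10 RPKM in GFP-depleted EC and 15.1 RPKM in bulk EC, 13.7-fold lower in GFP-depleted EC (11.2 to 16.9). Sparc, another granule protein made in large amounts by endothelium, had 656.2 RPKM in GFP-depleted EC and 575.8 RPKM in bulk EC, within 1.5-fold.

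Among the eicosanoid enzymes, Alox5ap had 23.3 RPKM in GFP-depleted EC and 36.4 RPKM in bulk EC, 1.56-fold lower in GFP-depleted EC. Its call was lost after correction for GC content. Tbxas1, thromboxane synthase, had 0.190 RPKM in GFP-depleted EC and 3.86 RPKM in bulk EC, 20.3-fold lower in GFP-depleted EC (13.9 to 31.8). Pla2g4a, the phospholipase that frees arachidonic acid, had 1.98 RPKM in GFP-depleted EC and 5.13 RPKM in bulk EC, 2.59-fold lower in GFP-depleted EC. Ptgs1, cyclooxygenase 1, which endothelium also uses to make prostacyclin, was higher in GFP-depleted EC, at 25 RPKM there and 13.4 RPKM in bulk EC. Ptges3 was also higher in GFP-depleted EC, at 592.1 RPKM there and 394.1 RPKM in bulk EC, but lost its call after correction for GC content. Of the cytoskeletal genes, Tuba8 was listed at 0 in GFP-depleted EC and had 2.79 RPKM in bulk EC, and the focal adhesion gene Zyx had 34.4 RPKM in GFP-depleted EC and 72.4 RPKM in bulk EC, a call that was lost after correction for GC content.

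**Figure D4:**
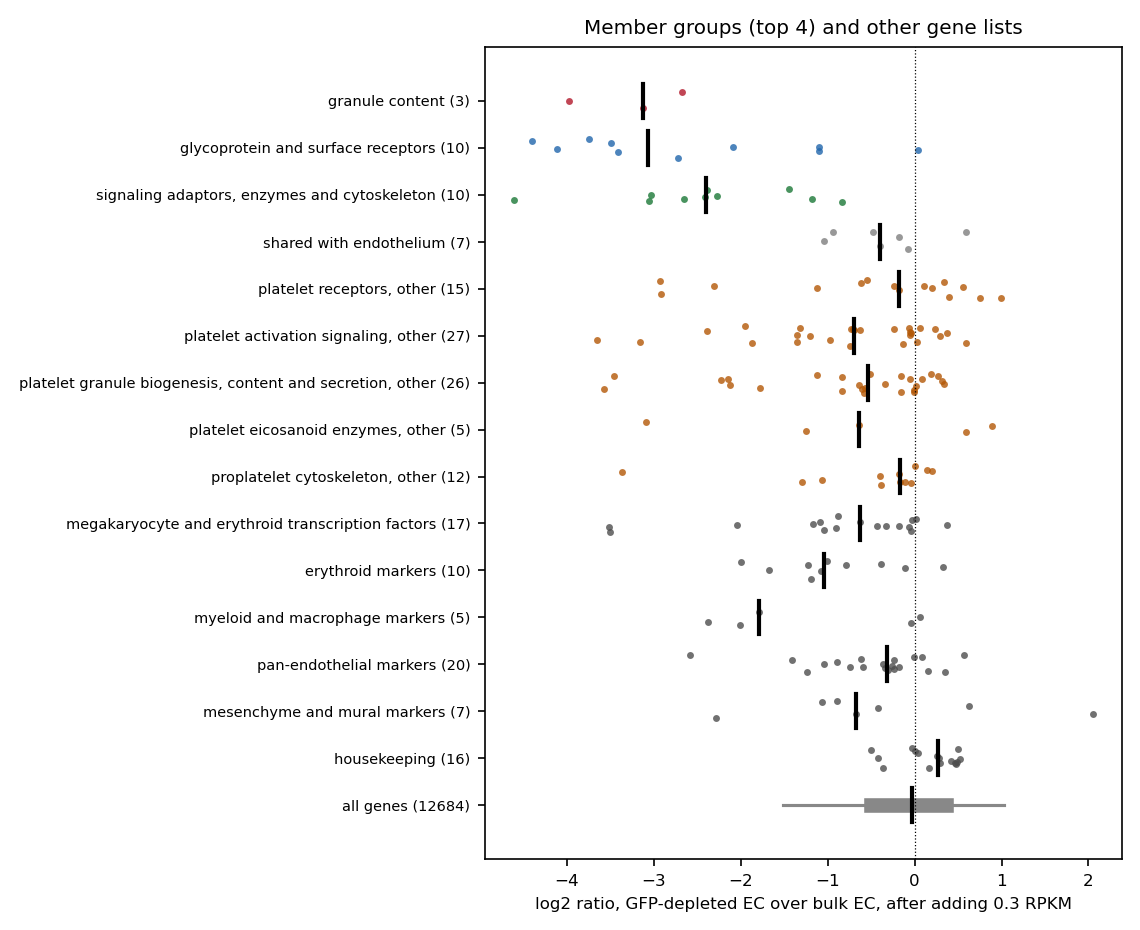
Log2 ratio, GFP-depleted EC over bulk EC with 0.3 RPKM added to both, for each gene (points) of the 4 member groups and of the other lists, with the number of listed genes in parentheses, black bars at medians, and for all genes a thick gray bar between the quartiles and a thin line between the 5th and 95th percentiles. The medians of the first 3 groups are −3.12, −3.07 and −2.39, and those of the other platelet lists are between −0.69 and −0.17.

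Of 20 transcription factors of megakaryocytes and red cells, 17 had a row, and 9 were lower in GFP-depleted EC, or 6 after correction for GC content, against 23.6% of all genes, or 18.6% after correction. Meis1 had 8.33 RPKM in GFP-depleted EC and 19.2 RPKM in bulk EC, 2.30-fold lower in GFP-depleted EC (2.15 to 2.46). Gata2, which acts upstream in progenitors, had 6.26 RPKM in GFP-depleted EC and 11.8 RPKM in bulk EC, and the call was lost after correction for GC content. Fli1, an ETS factor of megakaryocytes and of endothelium, had 104.9 RPKM in GFP-depleted EC and 107.8 RPKM in bulk EC, within 1.5-fold. Gata1 and Gfi1b, picked after their values were seen, are factors of megakaryocytes and red cells, and Gfi1b also acts in emerging hematopoietic cells. Gata1 had 0.473 RPKM in GFP-depleted EC and 8.46 RPKM in bulk EC, and Gfi1b was listed at 0 in GFP-depleted EC and had 3.14 RPKM in bulk EC. Runx1, given because its enhancer drives the reporter and also picked after its values were seen, was near the floor of the table, at 0.620 RPKM in GFP-depleted EC and 0.662 RPKM in bulk EC.

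Markers of other cells moved with the platelet genes in part. Of 15 erythroid markers, 10 had a row and 7 of them (70%) were lower in GFP-depleted EC, against 23.6% of all genes. After correction for GC content 5 were lower, against 18.6% of all genes. The 10 markers had summed levels of 558.5 RPKM in GFP-depleted EC and 1020 RPKM in bulk EC. Hbb-y, an embryonic globin, had 269.8 RPKM in GFP-depleted EC and 543.7 RPKM in bulk EC, 2.02-fold lower in GFP-depleted EC. Of 20 myeloid markers, only 5 had a row, 3 of them lower, against 23.6% of all genes. The sums of these 5 were 50.2 RPKM in GFP-depleted EC and 59.8 RPKM in bulk EC. Most of both sums was Laptm5, at 45.4 RPKM in GFP-depleted EC and 46.6 RPKM in bulk EC. Without it the other 4 summed to 4.79 RPKM in GFP-depleted EC and 13.2 RPKM in bulk EC. The defining markers Ptprc, Csf1r and Spi1 had no row, and Lyz2 was listed at 0 in GFP-depleted EC and had 1.25 RPKM in bulk EC. Of 12 mesenchyme and mural markers, 7 had a row, of which 5 were lower and 2 higher, against 23.6% and 15.3% of all genes. After correction for GC content 3 were lower and 1 was higher, against 18.6% and 13.7% of all genes. With the counting interval wholly past 1.5-fold, 2 were lower and 1 was higher. The 7 listed markers summed to 17.2 RPKM in GFP-depleted EC and 32.4 RPKM in bulk EC. The part of these cells in the differences of the platelet genes was not tested.

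Endothelial identity was present in both libraries. All 20 pan-endothelial markers had a row, with sums of 3173 RPKM in GFP-depleted EC and 3803 RPKM in bulk EC. Outside the naming rule, and with their values seen, defining genes were also read. Pecam1, the gene of the sorting marker CD31, had 153.9 RPKM in GFP-depleted EC and 154.5 RPKM in bulk EC, and Cdh5, VE-cadherin, had 81.5 RPKM in GFP-depleted EC and 72.9 RPKM in bulk EC. Of the 20, 8 (40%) were lower in GFP-depleted EC, against 23.6% of all genes, and 3 after correction for GC content, against 18.6%. Cldn5, a tight junction gene, had 83.5 RPKM in GFP-depleted EC and 197.2 RPKM in bulk EC, and lost its call after correction. Eng, the TGF-β co-receptor endoglin, likewise picked after its values were seen, kept its call, with 10.2 RPKM in GFP-depleted EC and 63.0 RPKM in bulk EC, 6.15-fold lower in GFP-depleted EC (5.66 to 6.69). None of 16 housekeeping genes was called in either direction as deposited, while 5 were higher in GFP-depleted EC under upper-quartile scaling and 2 after GC correction. The 1.5-fold rule thus called a part of the endothelial markers as well, and the difference of Eng was as large as that of Rgs18, at 6.04-fold, and larger than those of Itga2b, Lat, Lcp2 and Rasgrp2.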

How the data were processed

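GFP-depleted EC of the E10.5 AGM were CD31+CD117-CD45- cells sorted from transgenic reporter embryos. Bulk EC were sorted from wild type littermates, with 1 library for each group, so the GFP gate and the embryos differed together. The gate on CD117 and CD45 is not stated for bulk EC and may have differed as well. Per the labels and methods, cDNA was amplified with a SMART kit, sequenced in 1 Illumina HiSeq lane and aligned to mm9. BWA 0.5.7 and Cuffdiff stand in the submitters' processing notes, with no role. For annotation, counting and strand, the details were not given in the sources used here. RPKM values for each gene and library were deposited by the authors. A column with the authors' fold was not used.

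Of 12899 entries, 215 repeats of a symbol were dropped, keeping the entry of highest mean. Member genes and lists were chosen with earlier results of these data known. In the other lists, genes were named from up to 3 called lower, 3 called higher and 2 not called of highest level. Not all of these were given. Other genes, neighbors of members included, were picked after their values were seen.

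Depth was recovered from features under 150 bases, whose values were whole multiples of 1 covered base, within 0.15, for 98.9% of 272 features in GFP-depleted EC and 98.0% of 101 in bulk EC. A read length of 100 bases was used, the length at whose multiples 31.2% of 336 pseudogene features fell. The share at multiples of 50 bases was the same, so none fell at an odd multiple of 50. Depth and read numbers scale with this length. Read numbers per gene used exon lengths of GENCODE M1 (mm9), by Ensembl identifier, and are approximate. Of the 30 members, 11 had the start and end of GENCODE M1. In GFP-depleted EC, 10 of the 30 came out at a whole read number within 0.15, near the 30% expected by chance. PCR-amplified reads are not independent molecules, so intervals (Clopper-Pearson, conditional) cover counting error only. GC correction subtracted a LOWESS trend on exonic GC content, known for 12144 genes. The scripts, tested on simulated data, used Python 3.11.15, pandas 2.3.3, scipy 1.17.1 and statsmodels 0.14.6. Alternatives were a pseudocount of 1 RPKM, a minimum of 1 RPKM, a 2-fold rule, median and upper-quartile scaling, GC correction and summed repeats. After the data were seen, protein-coding genes only and an interval wholly past 1.5-fold were added.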

Additional observations from a re-analysis of the deposited data

How the results depend on the processing

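The same 24 members were lower in GFP-depleted EC with a pseudocount of 1 RPKM, a minimum of 1 RPKM, both scalings, GC correction, summed repeats, protein-coding genes only and the interval rule. Under a 2-fold rule 22 remained, without Rasgrp2 and Vwf, against 13.3% of all genes. The count of members higher was 1 (Mmrn1), and it was 0 under the 2-fold rule, under GC correction and under the interval rule. Over all genes, 1683 were lower and 839 were higher under the 2-fold rule, and 1054 were higher under the interval rule. Upper-quartile scaling shifted log2 ratios by up to 0.11, less for low genes, and called 2598 genes lower and 2508 higher, against 2997 and 1939 as deposited. Serpine2, at a log2 ratio of −0.08, changed sign to 0.04 under that scaling, and Clec1b changed sign under GC correction. No paired analysis was possible because only a single library was made per group. For the same reason no library could be left out, and the differences have no replicate check. Members with under 10 reads in GFP-depleted EC have the widest intervals. With a pseudocount of 1 RPKM the median log2 ratio of the 30 genes was −1.81.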

Other observations

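Some genes beside members also differed, not all in the direction of the member, and they were picked after their values were seen. Atp2a3, which encodes the calcium pump SERCA3 and lies 6101 bases from P2rx1, had 0.0446 RPKM in GFP-depleted EC and 1.81 RPKM in bulk EC, 40.7-fold lower in GFP-depleted EC (15.9 to 227.0), on about 3.45 reads there. Camkk1, on the other side of P2rx1 at 3846 bases, had 1.04 RPKM in GFP-depleted EC and 2.29 RPKM in bulk EC, 2.20-fold lower in GFP-depleted EC (1.67 to 2.91). P2rx1 itself was 2.55-fold lower in GFP-depleted EC (1.77 to 3.73). Clec1a, the C-type lectin gene 21361 bases from Clec1b, had 12.1 RPKM in GFP-depleted EC and 6.95 RPKM in bulk EC, while Clec1b was level. Rab43, 9091 bases from Gp9, had 1.95 RPKM in GFP-depleted EC and 0.951 RPKM in bulk EC, the opposite direction to Gp9. These ratios rest on 1 library per group and were not tested.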
